A study of Mus musculus with 2 samples.

Results

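The genes described are 10 mouse genes of the histone variant H2A.Z pathway, namely 9 that encode subunits of the SRCAP complex (Srcap, Znhit1, Actr6, Vps72, Dmap1, Yeats4, Actl6a, Ruvbl1 and Ruvbl2) and H2afz, which encodes H2A.Z itself. They were chosen by name, all 10 symbols were found in the GENCODE mouse annotation (release M21), and they were read against the 21938 protein-coding genes of that annotation. The data are 2 lists of SRCAP-YPet CUT&Tag peaks from SYAT cells. A gene was called bound in a replicate when a peak covered at least 1 bp of a promoter window, which reached from 1000 bp before to 500 bp past any of its annotated transcription start sites (TSS).

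SYAT cells are CGR8 mouse embryonic stem cells (mESC) in which the sequence of YPet, a fluorescent protein, and of an auxin-inducible degron had been inserted at the 3′ end of both Srcap alleles, and which express the auxin receptor OsTir1 from a lentiviral EF1a promoter. They derive from a single homozygous knock-in clone. Both samples form 1 group, the control condition, titled NT, in serum LIF medium with auxinole, which limits basal loss of the tagged protein. In CUT&Tag, an antibody against GFP that also binds YPet guides a transposase, which cuts and tags the DNA where SRCAP-YPet lies. The labels number the replicates without naming a culture, while the study states in general that its replicates were grown and treated independently. No library without the tag or after auxin was analysed here, so the values describe positions in these libraries and allow no comparison of conditions.

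The SRCAP complex is an ATP-dependent remodeller that replaces canonical H2A-H2B in nucleosomes with H2A.Z-H2B, mostly next to active promoters. SRCAP is its ATPase and scaffold, and several other subunits are shared with the EP400-TIP60 complex, with INO80 or with BAF. Mammalian H2A.Z comes in a pair of near-identical proteins, H2A.Z.1 from H2afz and H2A.Z.2 from H2afv. The question addressed is whether the tagged SRCAP lay at the promoters of the genes for its own complex and its own substrate, which says nothing about their regulation.

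SRCAP-YPet was found at the promoters of Srcap and Actl6a in both replicates, at those of Yeats4 and Ruvbl1 in replicate 1 only, and at none of the other 6. These 6 were Znhit1, Actr6, Vps72, Dmap1, Ruvbl2 and H2afz. H2afv, the other H2A.Z gene, had a promoter peak in both replicates. To show what the bound and unbound starts look like, DNA just upstream of the start is printed for Srcap, Actl6a and Ruvbl1, and for both H2A.Z genes, of which 1 was bound and 1 was not. For Yeats4, whose peak lay downstream of the start, part of the first intron inside the peak is printed. Sequences are from the GRCm38.p6 (mm10) assembly, written 5′ to 3′ on the strand of the gene.
Srcap, chr7:127511733-127511982, plus strand, ending at the base before the RefSeq start: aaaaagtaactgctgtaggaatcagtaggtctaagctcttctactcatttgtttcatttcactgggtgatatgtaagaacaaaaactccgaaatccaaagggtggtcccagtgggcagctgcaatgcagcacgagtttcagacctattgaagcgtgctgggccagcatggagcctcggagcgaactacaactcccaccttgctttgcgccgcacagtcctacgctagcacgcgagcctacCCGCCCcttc
Actl6a, chr3:32708296-32708506, plus strand, ending at the base before the first protein-coding GENCODE start in the window: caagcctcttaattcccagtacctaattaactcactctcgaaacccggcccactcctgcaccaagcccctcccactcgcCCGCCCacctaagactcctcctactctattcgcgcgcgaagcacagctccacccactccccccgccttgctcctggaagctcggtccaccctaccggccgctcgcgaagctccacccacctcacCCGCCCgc
Yeats4, chr10:117224059-117224258, minus strand, first intron: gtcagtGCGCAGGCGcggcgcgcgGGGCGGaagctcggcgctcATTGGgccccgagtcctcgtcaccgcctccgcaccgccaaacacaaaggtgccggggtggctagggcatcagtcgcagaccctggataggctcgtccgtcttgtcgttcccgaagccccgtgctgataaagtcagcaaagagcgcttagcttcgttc
Ruvbl1, chr6:88465159-88465408, plus strand, ending at the base before the RefSeq start: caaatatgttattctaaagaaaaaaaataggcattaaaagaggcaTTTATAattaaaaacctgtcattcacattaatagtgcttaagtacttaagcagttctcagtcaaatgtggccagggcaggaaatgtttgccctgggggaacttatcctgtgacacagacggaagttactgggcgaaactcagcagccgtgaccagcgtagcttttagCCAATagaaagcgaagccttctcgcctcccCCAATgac
H2afz, chr3:137864237-137864486, plus strand, ending at the base before the RefSeq start: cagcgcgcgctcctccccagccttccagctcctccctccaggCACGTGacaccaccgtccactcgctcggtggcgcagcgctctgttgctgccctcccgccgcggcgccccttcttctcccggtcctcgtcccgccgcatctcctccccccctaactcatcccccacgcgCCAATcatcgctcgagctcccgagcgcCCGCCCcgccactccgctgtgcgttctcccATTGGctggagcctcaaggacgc
H2afv, chr11:6444444-6444693, minus strand, ending at the base before the RefSeq start: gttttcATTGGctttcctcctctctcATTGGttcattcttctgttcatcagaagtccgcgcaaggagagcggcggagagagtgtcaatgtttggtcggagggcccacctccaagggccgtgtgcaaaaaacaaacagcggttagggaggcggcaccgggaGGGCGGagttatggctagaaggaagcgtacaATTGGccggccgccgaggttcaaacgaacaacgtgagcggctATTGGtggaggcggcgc

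Capitals mark matches to the short motifs searched: CCAAT, the GC box GGGCGG, the NRF1 motif GCGCANGCG, the E box CACGTG and the TATA-like TATAAA. Both strands were searched, so a match may stand as the reverse complement of these letters. The H2afz stretch had the highest GC content of the 6, at 71.2%, with 28 CpG dinucleotides, and no base of it lay in a peak. The H2afv stretch had a GC content of 57.2% with 19 CpGs. All 250 of its bases lay in the replicate 1 peak and 168 in the replicate 2 peak. The Ruvbl1 stretch was the poorest in GC, at 42.4% with 6 CpGs, and only its last 21 bases lay in the replicate 1 peak. The Srcap stretch had a GC content of 51.6% with 11 CpGs, and its last 86 bases in replicate 1 and last 223 bases in replicate 2 lay in the peak. The Actl6a stretch was ended after 211 bases, since a protein-coding GENCODE transcript starts at 32708507, 39 bp before the RefSeq start. It had a GC content of 64.0% with 16 CpGs. Its last 153 bases lay in the replicate 2 peak and none in the replicate 1 peak.

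Of the 10 genes, 4 (40.0%) were bound in replicate 1, where 15.7% of all protein-coding genes were bound. In replicate 2, 2 (20.0%) were bound, where 30.4% of coding genes were. The same 2 were bound in both replicates, against 12.0% of coding genes, and 4 in at least 1 replicate, against 34.0%. The mean was 3 ± 1.41 genes (SD, n = 2). The share of the 10 genes therefore lay above the background in replicate 1. In replicate 2 it was lower than the background, but within 2 genes of it, and is read as near it. The second list held more peaks, 12958 against 6158. With 10 genes, a single gene moves the share by 10 percentage points. When the replicate 2 list was cut to its 6158 best-scoring peaks, the length of the replicate 1 list, 19.2% of coding genes were bound in replicate 2. The share of the 10 genes stayed at 20.0% and was then no longer below the background. Such a cut can only remove peaks, and the replicate 2 peaks of Srcap and Actl6a ranked 340 and 844. With peaks of a score of at least 50 only, Srcap was the 1 gene still bound in both replicates.

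Promoters rich in CpG were bound more often in both lists, so the genes were also read against these. A gene counted as CpG-rich when the DNA within 500 bp on either side of at least 1 of its TSSs had a GC content of at least 55% and an observed over expected CpG of at least 0.65. This held for 8 of the 10 genes, all but Actr6 and Ruvbl1, and for 42.3% of coding genes. In replicate 1, 3 of these 8 (37.5%) were bound, against 26.1% of CpG-rich coding genes, and in replicate 2, 2 of 8 (25.0%) were, against 49.0%. The same 2 of 8 were bound in both replicates, against 20.8%, and 3 of 8 in at least 1, against 54.4%. Each of these counts lay within 2 genes of the CpG-rich background and is read as near it. The 10 genes had a median of 6 annotated TSSs (range 2 to 11), against a median of 3 for coding genes, so their promoter windows were larger in number.

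**Figure D1:**
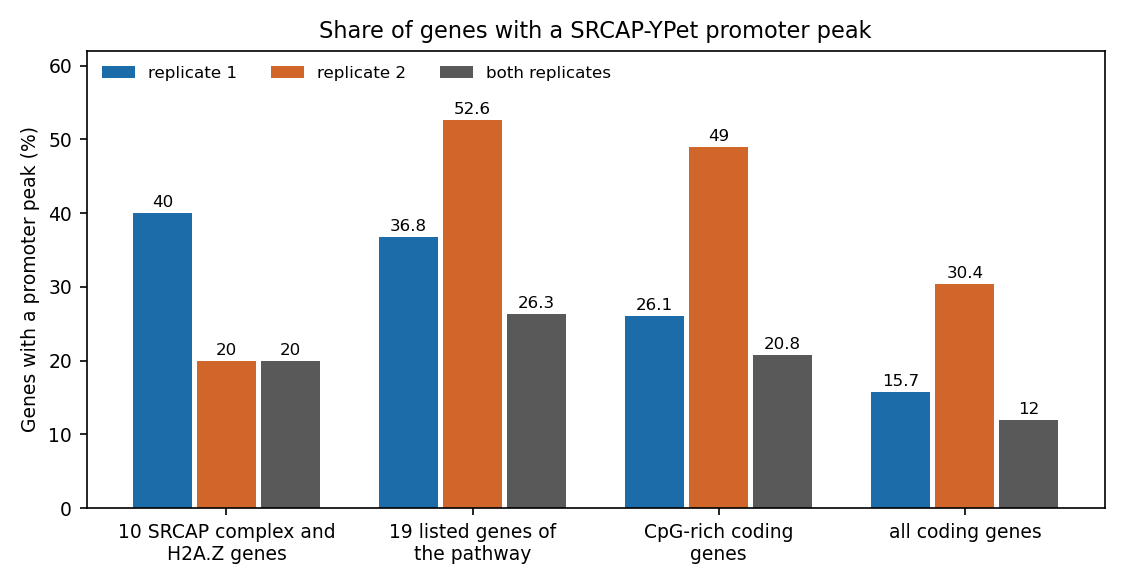
Percent of genes with a promoter peak (vertical axis) in each replicate and in both, for the 10 genes of the SRCAP complex and H2A.Z, 19 listed genes of the same pathway, CpG-rich coding genes and all coding genes; each bar is 1 count with no error bar. The 10 genes are the only set of the 4 with a higher share in replicate 1 (40.0%) than in replicate 2 (20.0%).

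Srcap (ENSMUSG00000053877.12, chromosome 7, positions 127511983 to 127561219, plus strand), the gene of the ATPase, carried its own product at its promoter in both replicates. In replicate 1 the peak spanned chr7:127511897-127512346 (450 bp, score 50) and in replicate 2 chr7:127511760-127512346 (587 bp, score 132). The score is that of the peak caller and ranks peaks within 1 list only. Both peaks ended at the same base, the replicate 2 peak began 137 bp further upstream, and the shared 450 bp made up 76.7% of their union. Their midpoints lay 9 bp and 26 bp downstream of the nearest of the gene's 11 TSSs, and each peak contained 5 of these TSSs. An antisense RNA, 1700008J07Rik, starts 123 bp from an inner Srcap TSS on the opposite strand, but neither peak lay in its promoter window.

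Among promoter peaks of the same list, 74.1% scored lower than the Srcap peak in replicate 1 and 96.6% did in replicate 2. The replicate 2 peak ranked 340 of 12958 peaks. No further peak lay in the 49237 bp of the Srcap gene in either replicate, including its 3′ end, where the tag sequence had been inserted.

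Znhit1 and Actr6 encode subunits that, with SRCAP, engage the nucleosome during H2A.Z exchange. Neither had a promoter peak in either replicate. The nearest peak to a Znhit1 TSS (ENSMUSG00000059518.14, chromosome 5, minus strand) lay 57.8 kb away in replicate 1 and 57.6 kb away in replicate 2, both times at the promoter of Ap1s1. A start of the coding gene Plod3, on the opposite strand, lies 32 bp from 1 of the 6 Znhit1 TSSs, and no peak lay in the windows around these TSSs. For Actr6 (ENSMUSG00000019948.4, chromosome 10, minus strand) the gaps were 45.7 kb, to a peak at the Scyl2 promoter, and 12.7 kb, to a peak at the Uhrf1bp1l promoter. Actr6 was 1 of the 2 genes without a CpG-rich start, with a GC content of 48.5% but an observed over expected CpG of 1.01.

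Vps72 encodes YL1, the subunit that binds H2A.Z-H2B as a chaperone. It had no promoter peak (ENSMUSG00000008958.14, chromosome 3, plus strand). The gap was 95.0 kb in replicate 1 and 4.09 kb in replicate 2, where the nearest peak had a score of 42 and lay at the promoter of the neighbouring gene Pip5k1a. The replicates thus differed here in which promoter was nearest, not at Vps72 itself. Dmap1 encodes a subunit shared with EP400-TIP60, and was also without a promoter peak (ENSMUSG00000009640.11, chromosome 4, minus strand). Its nearest peak lay 131 kb away in replicate 1, at the Eri3 promoter with a score of 123, and 36.7 kb away in replicate 2, inside the Eri3 gene with a score of 13, the lowest score in the list.

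Yeats4 encodes GAS41, a YEATS-domain reader of acylated lysines. It was bound in replicate 1 only (ENSMUSG00000020171.8, chromosome 10, minus strand). The peak spanned chr10:117223941-117224467 (527 bp), and its score of 66 was higher than those of 86.7% of the promoter peaks in that list and the highest of the 4 genes bound in replicate 1. It held none of the gene's 3 TSSs and lay wholly downstream, 40 to 566 bp from the start, with its midpoint 286 bp from the nearest TSS. The median for coding genes in the same list was 136 bp (quartiles 56 to 260). A long non-coding RNA, Gm48772, starts 82 bp from the Yeats4 start on the opposite strand, and the same peak lay in its promoter window too. In replicate 2 the nearest peak was 22.0 kb away, outside any promoter, with a score of 14.

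Actl6a encodes BAF53A, an actin-related protein of several remodelling complexes. It was bound in both replicates (ENSMUSG00000027671.14, chromosome 3, plus strand). The peaks spanned chr3:32708519-32709019 (501 bp, score 49) in replicate 1 and chr3:32708354-32708907 (554 bp, score 95) in replicate 2. They shared 389 bp, 58.4% of their union. Of the promoter peaks of the same list, 73.2% scored lower in replicate 1 and 90.7% in replicate 2. Actl6a has 8 TSSs, and its outermost one carried no peak: the midpoints lay 2471 and 2332 bp downstream of it, among the inner starts, 4 bp and 80 bp from the nearest TSS. The bases around the outermost TSS had a GC content of 39.5%, and the peaks themselves 65.1% and 65.3%.

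Ruvbl1 and Ruvbl2 encode the AAA+ ATPases that assemble as a ring in SRCAP, EP400-TIP60 and INO80. Ruvbl1 (ENSMUSG00000030079.15, chromosome 6, plus strand) was bound in replicate 1, at chr6:88465388-88465680 (293 bp, score 45), with the midpoint 125 bp downstream of the start. Of the promoter peaks in that list, 67.5% scored lower and 28.8% were narrower, in both cases the lowest share among the 4 peaks at these genes in that list. In replicate 2 the nearest peak was 18.8 kb away, at the Eefsec promoter, with a score of 17. Ruvbl2 (ENSMUSG00000003868.14, chromosome 7, minus strand), 1 of whose 8 TSSs lies 135 bp from a start of Gys1 on the opposite strand, was not bound. Its nearest peaks lay 83.9 kb away in replicate 1 and 26.6 kb away in replicate 2, the latter at the promoter of Snrnp70 with a score of 106. The genes of these partner subunits were thus not both bound in either list.

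H2afz (ENSMUSG00000037894.13, chromosome 3, positions 137864487 to 137866922, plus strand) had no promoter peak in either replicate. All 7 of its TSSs were CpG-rich, with a GC content of 71.8% around the first one. The nearest replicate 1 peak lay 53.4 kb away, at the Lamtor3 promoter. In replicate 2 a peak of 258 bp with a score of 36 lay at chr3:137867297-137867554, 2169 bp beyond the last H2afz TSS and past the end of the gene. Its midpoint was 250 bp from a TSS of the neighbouring gene Dnajb14, in whose promoter window it fell. It was the peak closest to any unbound gene of the 10, and it stayed outside the H2afz window also when this was widened to 2000 bp upstream and 1000 bp downstream.

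**Figure D2:**
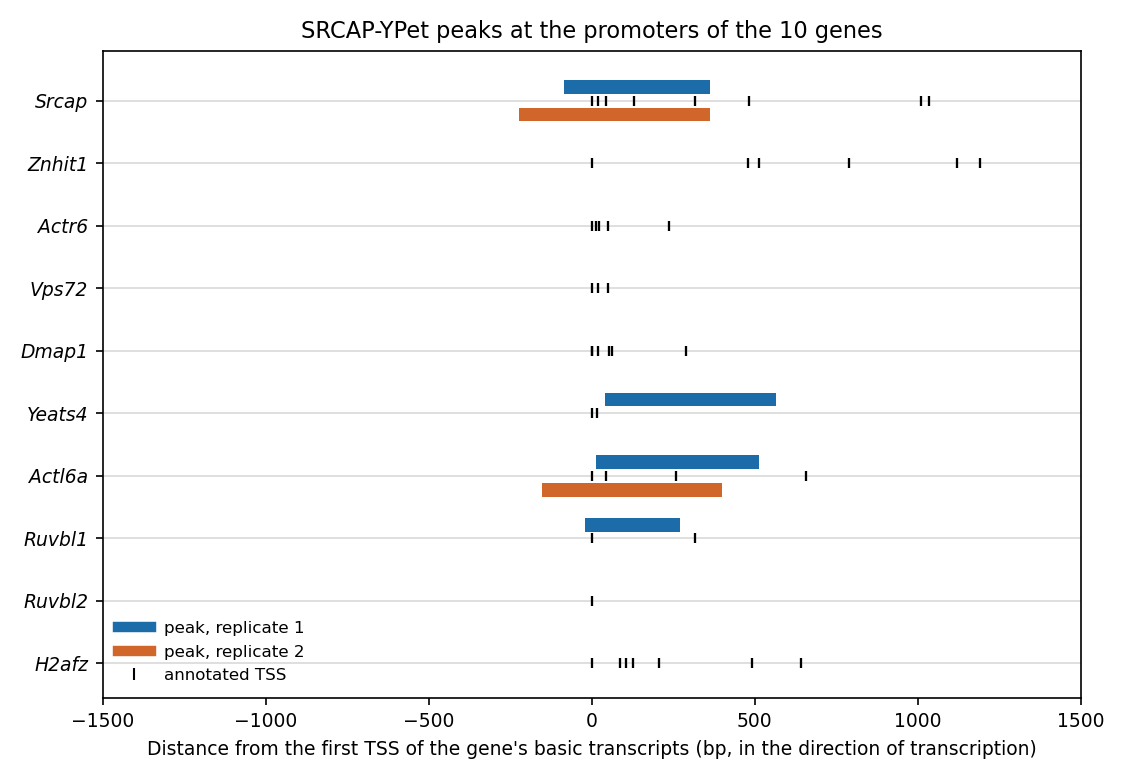
Positions of the peaks of replicate 1 (upper bars) and replicate 2 (lower bars) at the 10 genes, in bp from the first TSS of each gene's GENCODE basic transcripts, positive in the direction of transcription; ticks are annotated TSSs within 1500 bp. The 6 peaks at 4 genes all span or lie just downstream of this start, from 223 bp upstream to 566 bp downstream, and 6 genes have none.

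The 6 peaks at these 4 genes had GC contents from 61.3% (Srcap, replicate 2) to 65.6% (Srcap, replicate 1), against medians of 63.5% and 62.6% for promoter peaks in replicates 1 and 2. Repeat-masked bases made up 0% to 11.3% of them. In replicate 1 the 4 scores, 45 to 66, all lay above the median of 35 for promoter peaks. In replicate 2 both scores, 95 and 132, lay above the upper quartile of 63. The 2 genes bound in replicate 1 only had the highest and the lowest of the 4 scores, so the score did not separate them from the genes bound in both replicates. Of the 656 promoter peaks of replicate 1 with scores of 45 to 66, 550 (83.8%, 95% Wilson interval 80.8 to 86.5%, counting error only) overlapped a replicate 2 peak and 106 did not, and the Yeats4 and Ruvbl1 peaks were among the latter.

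**Figure D3:**
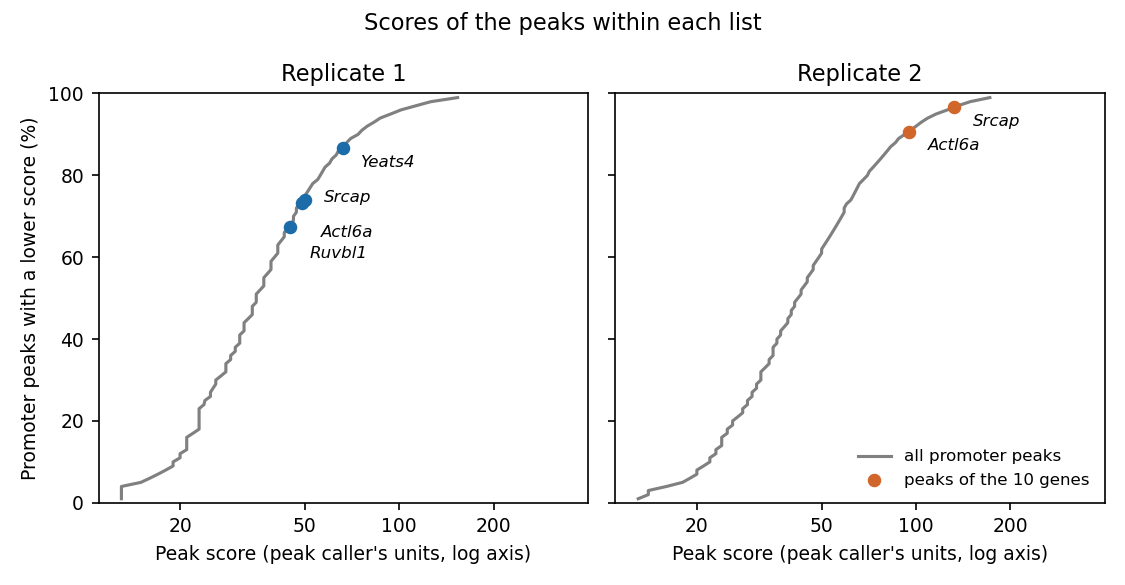
Percent of promoter peaks with a lower score (vertical axis) against the peak score on a log axis, for each list (grey line) and for the peaks at the 10 genes (points); scores may be compared within a panel only. The replicate 1 points lie between 67.5% and 86.7%, and the replicate 2 points at 90.7% and 96.6%.

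Counting each replicate separately, a gene lacked a promoter peak in 14 cases, with 6 genes counted in both replicates. In 11 of the 14 cases the nearest peak lay in the promoter window of another gene, and in 3 it lay in none. The same share over unbound coding genes was not computed. Of all peaks, 54.3% in replicate 1 and 51.8% in replicate 2 lay in a promoter window. In replicate 1 the gaps of the 6 unbound genes ran from 45.7 to 131 kb with a median of 70.9 kb, against a median of 92.8 kb (quartiles 35.8 to 216) for the 18493 coding genes without a promoter peak. In replicate 2 the gaps of the 8 unbound genes ran from 2.17 to 57.6 kb with a median of 20.4 kb, against 48.1 kb (17.8 to 121) for 15278 coding genes. In the longer list, 3 of the 8 (Actr6, Vps72 and H2afz) had a gap under the lower quartile, and in the shorter list none of the 6 did. No peak lay inside any of the 10 genes outside its promoter windows. The share of coding genes for which this holds was not computed, so it is not read as a trait of these genes.

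**Figure D4:**
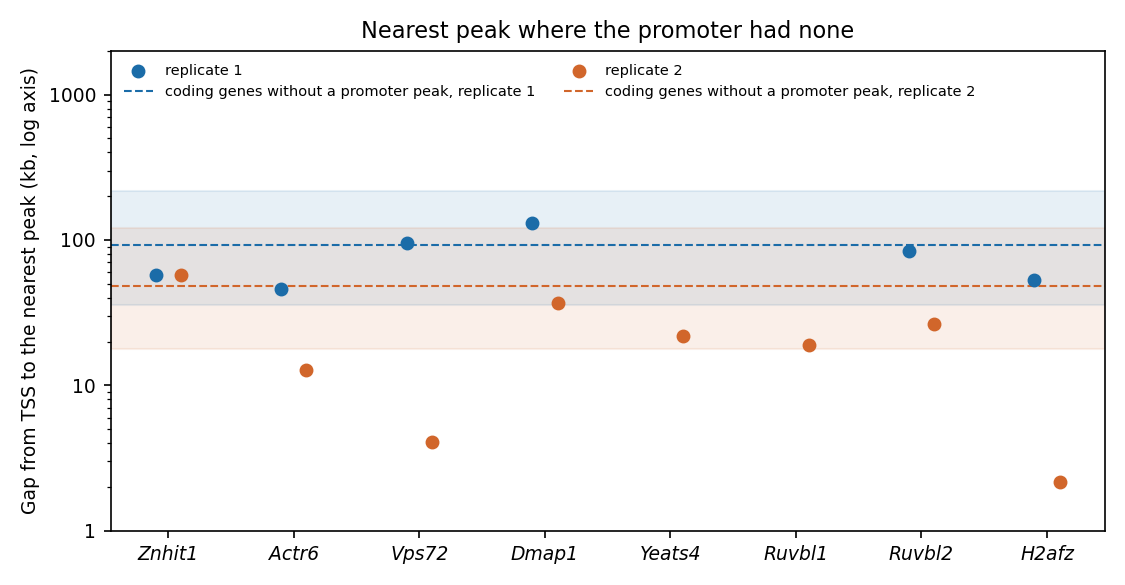
Distance in kb (log axis) from the nearest TSS to the nearest peak, for each of the 10 genes in each replicate where its promoter had none; dashed lines and shaded bands are the median and quartiles over coding genes without a promoter peak in the same replicate. H2afz (2.17 kb) and Vps72 (4.09 kb) in replicate 2 have the shortest gaps, each to the promoter of a neighbour.

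Motif letters were counted in windows of 350 bp, made of 300 bp before and 50 bp after the TSS nearest to the replicate 1 peak, or of the gene start where a gene had none. For the share of coding genes the window sat at the gene start of every gene, bound or not. The windows of the bound genes and of the background were thus not always placed alike. At Actl6a the window lay at an inner TSS, far from the outermost one. GGGCGG was present at 5 of the 10 genes, among them all 4 bound genes and H2afz, and at 44.2% of coding genes. CCAAT was present at 6 of 10, namely Yeats4, Actl6a and Ruvbl1 of the bound genes and Actr6, Ruvbl2 and H2afz of the unbound ones, and at 42.6% of coding genes. Yeats4 held 3 matches to GCGCANGCG between 57 and 27 bp upstream of the TSS, a motif found at 8.58% of coding genes and at none of the other 9. Of the 3 matches, 2 lie on opposite strands and overlap, shifted by 1 base. All 3 lay upstream of the peak, outside it, and a further match, in capitals in the printed intron stretch, lay inside it.

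CCGGAAG, an ETS motif, was present at Actr6 and Dmap1 only, with 2 matches each, and at 11.3% of coding genes. CACGTG was present at Znhit1 and H2afz, and at 8.46% of coding genes. TATAAA was present only at Ruvbl1, 205 bp upstream of its start, and at 14.8% of coding genes. AANATGGCG, a YY1 motif, CTCGCGAG and TGACGTCA were present at none of the 10 and at 3.09%, 1.25% and 2.5% of coding genes. The Vps72 window held none of the 9 motifs. The relation of these letters to SRCAP-YPet peaks was not tested.

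To place the 10 genes within the pathway, 19 further genes were listed: H2afv and Actb, the histone chaperones Anp32e, Nap1l1 and Nap1l4, 11 subunits of EP400-TIP60, the ATPase gene Ino80, and the H2A.Z-associated readers Brd2 and Pwwp2a. In replicate 1, 7 of these (36.8%) were bound, and in replicate 2, 10 (52.6%). Both replicates had a peak at 5 (26.3%), namely H2afv, Brd8, Epc1, Mbtd1 and Ino80. This count fell to 1 with peaks of a score of at least 50 only, where 2.99% of coding genes were bound in both, and also to 1 where a TSS had to lie inside the peak, where 6.97% were. In all, 12 (63.2%) were bound in at least 1 replicate, of which Ep400 and Pwwp2a in replicate 1 only and Nap1l1, Nap1l4, Kat5, Morf4l1 and Brd2 in replicate 2 only. All coding genes had shares of 15.7% in replicate 1, 30.4% in replicate 2, 12.0% in both and 34.0% in at least 1. Of the 19 genes, 17 had a CpG-rich TSS. In replicate 1, 6 of these 17 (35.3%) were bound, against 26.1% of CpG-rich coding genes, and in replicate 2, 8 (47.1%), against 49.0%. In both replicates 4 (23.5%) were bound, against 20.8%, and in at least 1 replicate 10 (58.8%), against 54.4%. Each of these counts lay within 2 genes of the CpG-rich background and is read as near it.

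H2afv (ENSMUSG00000041126.16, chromosome 11, minus strand) gave the clearest contrast with H2afz. Its peak spanned chr11:6444066-6444766 (701 bp, score 39) in replicate 1 and chr11:6444101-6444611 (511 bp, score 58) in replicate 2, the latter lying wholly within the former. Both peaks contained both of its TSSs, with midpoints 27 bp and 4 bp from the nearest one. Of the promoter peaks of the same list, 56.9% and 69.8% scored lower, so the H2afv peaks ranked below those of Srcap and Actl6a in both lists. Both H2A.Z genes start in CpG-rich DNA, with a GC content of 59.7% at H2afv and 71.8% at H2afz.

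The ATPases of the related remodellers differed. Ino80 had a promoter peak in both replicates, with scores of 57 in replicate 1 and of 85 and 60 in replicate 2, where 2 separate peaks fell in its windows. Ep400, the EP400-TIP60 ATPase, was bound in replicate 1 only, with a score of 62. Of the EP400-TIP60 subunits bound in both replicates, Mbtd1 scored 42 in replicate 1, where its peak was 242 bp wide, and 123 in replicate 2, where it was 900 bp wide, and this peak also lay in the promoter window of Utp18. Brd8 scored 39 and 53, with peaks that also lay in the promoter window of Kif20a, and Epc1 scored 43 and 66. A further replicate 2 peak of score 36 held no Epc1 TSS, and its midpoint lay 625 bp from the nearest one. Only 94 of its 437 bp fell in an Epc1 window, and it also lay in the promoter windows of Gm28529 and Mir1893. Epc2 showed how closely the window could decide a call: its nearest replicate 2 peak, with a score of 64, began 529 bp downstream of a TSS, just past the 500 bp limit, and the gene was counted as unbound.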

How the data were processed

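The 2 CUT&Tag samples form 1 group. Per the labels, the authors used STAR, Picard and MACS2 with the builds mm10 and, for the Drosophila spike-in, dm6; the labels give no versions. The authors called peaks in each sample separately and deposited, for each peak, its position, a name and a score. The deposited score is a whole number of at least 13 and was read as 10 times the −log10 of the q-value, with the minimum at a q of 0.05. The methods, under a joint heading for ChIP-seq and CUT&Tag, describe a filter for autosomes, X and Y, downsampling by Drosophila reads before peak calling and exclusion of blacklisted regions, and the reporting form gives a MACS2 command with an input library in its ChIP-seq part. Whether each step was applied to these lists is unknown. Each list holds 6 peaks on mitochondrial DNA, which that filter would have removed. The lists give no read numbers, so depth is unknown, and a missing peak says that none was called at this depth, not that SRCAP was absent.

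Promoter windows came from GENCODE M21 and were overlapped with the peaks in Python 3.11.15 with numpy 2.4.6, pandas 2.3.3, scipy 1.17.1 and matplotlib 3.10.9. With 410 simulated peaks, all 227 genes whose promoter windows these overlapped were recovered among 21938. No test was run, since there is 1 group. RefSeq promoter sequences were matched for 9 of the 10 genes, H2afz under the symbol H2az1, and Vps72 was not matched. The 10 genes, the pathway list, the motifs and the naming rule (all 10, listed genes bound in both replicates, H2afv, and neighbours sharing a peak) were chosen with earlier results of these data known. Listed genes bound in 1 replicate, Epc2 and the genes at nearest peaks were named after their values were seen. The planned choice of sequences, non-exonic bases common to both replicates, left no bases, so those printed were chosen after the peaks were seen.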

Additional observations from a re-analysis of the deposited data

How the results depend on the processing

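Across 9 alternatives and leaving out each replicate, 55 of the 65 values of the summary counts stayed within 1.5 times the reported count or, for the percent of coding genes, within its 95% Wilson interval, and 10 moved further. With peaks of a score of at least 50 only, 2 of the 10 genes were bound in replicate 1 and 1 in both replicates, since Ruvbl1 lost its peak and Actl6a its replicate 1 peak, and 1 of the 19 listed genes and 2.99% of coding genes were bound in both. Where a TSS had to lie inside the peak, 1 listed gene and 6.97% of coding genes were bound in both, and Yeats4 was bound in 0 replicates. The percent of coding genes bound in both was 9.69 with lists of equal length, 11.1 with a window of 500 bp upstream to 100 bp downstream, 12.5 with 2000 bp upstream to 1000 bp downstream, and 11.5 with TSSs of basic transcripts. For single genes, 87 of 90 values were unchanged. The values of the 6 genes bound in neither replicate could change only with the wider window. The other settings only removed peaks or windows, so much of this count was fixed in advance. Leaving out a replicate, the mean number of genes bound ranged from 2 to 4. No paired analysis was possible because both samples belong to 1 group and no result comes from a test.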
